A study of Mus musculus with 6 samples.

Results

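Strong accessible intervals in intergenic sequence within reach of coding genes were examined in mouse kidney chromatin profiled by assay for transposase-accessible chromatin with sequencing (ATAC-seq). In ATAC-seq a transposase cuts DNA that is not covered by nucleosomes, so that stretches of open chromatin collect reads. The intervals described here were chosen by their position and by a measured value. The highest summit of each lay outside every protein-coding gene, more than 3 kb and at most 50 kb from the nearest coding transcription start site, and more than 1 kb from any lncRNA start. The fold enrichment at that summit, the pileup of reads over the background as computed by the peak caller, was at least 10. On the autosomes 4476 intervals met these conditions, 1.60% of the 279569 distinct intervals of the deposited peak list and a subset of the 33555 autosomal intervals of fold 10 or more.

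The libraries came from kidneys of WT mice and of mice with tubule-specific deletion of Acly (Acly cKO), the gene of the enzyme that makes acetyl-CoA from citrate. By the methods of the study, the Acly cKO mice carried floxed Acly alleles and the Ksp-Cre transgene, which is driven by a kidney epithelial cadherin promoter, the WT mice were littermates without Cre, and the tissue was kidney cortex. The labels list the treatment of all 6 libraries as Control and give no age. By these labels 3 WT libraries came from batches 1 and 2, and 3 Acly cKO libraries from batches 4 and 5. The effects of batch and genotype therefore cannot be told apart. The peak list is a single pooled call whose peak names list no library. Which kidneys entered the pool is therefore unknown, and since the methods of the study also describe WT data from an earlier deposit, WT libraries not analysed here may be part of it. No value belonged to one library, so the depth of each library was unknown, replicate errors could not be computed, and no comparison of the genotypes was made. Because the tissue is a mixture of cell types, fewer cells of a type and less open chromatin per cell cannot be told apart in any value below.

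Enhancers are stretches of regulatory DNA that raise transcription from a promoter at a distance. They are bound by transcription factors in clusters, which displaces nucleosomes and opens the chromatin, and which factors bind differs between cell types. In kidney tubules the HNF1 and HNF4 factors maintain the program of the mature epithelium, while AP-1 factors such as FOS and JUN open enhancers in many tissues. Intergenic open chromatin also includes sites of CTCF, which organises chromatin loops, and promoters that no annotation lists. Accessibility alone does not separate these kinds of element, and no histone mark was used here, so the regions are called intergenic intervals throughout.

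The sequences under the summits were searched on both strands for 31 motifs in a window of 200 bp. The HNF1 motif was the palindrome of GTTAAT and ATTAAC with 1 base between them, and the CTCF motif was CCAC and AGGGGGCGC with 1 base between them, each with 1 mismatch allowed. The HNF4 motif was CAAAGTCCA and the AP-1 motif TGANTCA, both matched exactly. The windows below show these 4 motifs because they set the intergenic intervals apart from weaker intervals or from promoters in the results that follow. Each is the interval of highest fold with the motif within 50 bp of its summit, at a gene of the marker and pathway lists used below, or among all intervals where no listed gene had one, which was the case for CTCF. They are reference sequence of GRCm39 on the plus strand with the summit in the middle, and capitals mark the motif.
HNF1 at Ppp1r1a, chr15:103450975-103451095: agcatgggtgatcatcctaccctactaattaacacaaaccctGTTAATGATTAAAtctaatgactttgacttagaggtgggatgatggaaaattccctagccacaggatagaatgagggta
HNF4 at Il6st, chr13:112596620-112596740: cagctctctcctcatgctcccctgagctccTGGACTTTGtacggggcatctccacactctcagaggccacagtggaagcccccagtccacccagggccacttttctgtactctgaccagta
AP-1 at Col4a1, chr8:11223402-11223522: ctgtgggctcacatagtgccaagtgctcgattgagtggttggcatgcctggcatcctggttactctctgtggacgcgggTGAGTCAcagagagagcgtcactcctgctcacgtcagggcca
CTCF at Sema3b, chr9:107490009-107490129: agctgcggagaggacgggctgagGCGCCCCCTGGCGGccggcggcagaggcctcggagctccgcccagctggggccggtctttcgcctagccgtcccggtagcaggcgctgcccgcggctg
The interval 4.60 kb upstream of Ppp1r1a, an inhibitor of protein phosphatase 1, had a fold enrichment of 17.5. Il6st encodes the shared receptor subunit gp130 of the IL-6 family, and the interval 3.92 kb upstream of its start had a fold of 14.9. The interval near Col4a1, a basement membrane collagen, lay 37.4 kb downstream of the nearest of its annotated starts with a fold of 39.6. The Sema3b window came from an interval 25706 bp wide with 62 summits.

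For 4 further motifs, of hormone and nuclear receptors and of other factors, 1 window each is shown to spell out the letters searched. TFCP2 was found in 4.4% of windows, the others in under 1%. DR1, the direct repeat bound by nuclear receptors that pair with RXR, is 2 copies of AGGTCA with 1 base between them. The glucocorticoid response element (GRE) is AGAACA and TGTTCT with 3 bases between them, the TFCP2 motif 2 copies of CCAG 6 bases apart, and the NFI motif TTGGC and GCCAA 5 bases apart. DR1 and GRE were matched with 1 mismatch, TFCP2 and NFI exactly.
DR1 at Socs1, chr16:10572515-10572635: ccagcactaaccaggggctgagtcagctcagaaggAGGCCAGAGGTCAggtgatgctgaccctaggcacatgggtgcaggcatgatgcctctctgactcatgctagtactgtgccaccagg
GRE at Slc6a18, chr13:73808472-73808592: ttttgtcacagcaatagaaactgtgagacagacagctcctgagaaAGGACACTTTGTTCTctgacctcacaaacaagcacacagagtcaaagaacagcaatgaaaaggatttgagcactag
TFCP2 at Kng2, chr16:22852490-22852610: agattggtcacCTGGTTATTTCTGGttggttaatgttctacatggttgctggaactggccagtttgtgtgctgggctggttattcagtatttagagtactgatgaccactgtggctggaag
NFI at Creld2, chr15:88715782-88715902: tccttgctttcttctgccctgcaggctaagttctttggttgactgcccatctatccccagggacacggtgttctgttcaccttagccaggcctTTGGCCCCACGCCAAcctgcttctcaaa
Socs1, an inhibitor of JAK kinases, had its interval 31.3 kb downstream of the start with a fold of 25.1, and the window also held the AP-1 motif. The interval at Slc6a18, an amino acid transporter of the proximal tubule, had a fold of 14.1, that at Kng2, a kininogen gene, 23.2, and that at Creld2, a gene induced by endoplasmic reticulum stress, 27.6. No listed gene had an NFI window, and NFI matched only 3 of the 4476 windows.

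The fold enrichment of the 4476 intervals, which chose them, had a median of 14.8 with quartiles of 11.9 and 20.03 and a maximum of 216.7. The lowest −log10 q was 96.6. Otud4, Islr2 and Limd1 were the nearest genes of intervals just above the minimum, at a fold of 10.0, and Tmsb10, Pbp2 and Msantd2 those of intervals just below it, at 9.95. The fold of 645 intervals lay between 10 and 11, and 779 intervals in the same territory were left out with a fold between 9 and 10. At the limits of distance, an interval 3.002 kb from Ccdc83 and another 49.986 kb from Mrtfb were kept, while one 2.992 kb from Id3 and one 50.034 kb from Arl4c were left out.

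The intergenic intervals were narrower than promoters and held several summits. Their median width was 1816 bp, with quartiles of 1235 and 2803 bp, against 3331 bp at 11630 promoter intervals of fold 10 or more within 1 kb of a coding start. At 9890 intervals inside coding genes the median was 2162 bp, and at 3391 intervals beyond 50 kb 1607 bp, both sets at fold 10 or more. A median of 4 summits was called per intergenic interval, and 12.8% (Wilson 95% interval 11.8 to 13.8%, counting error only, as for all shares below) had a single summit. Where there were more, the nearest other summit was a median of 422 bp from the highest. Of the 24729 summits in these intervals, 5945 reached a fold of 10 themselves. Beyond the highest summit, 236 intervals (5.27%) extended into a coding gene, and these had a median width of 3909 bp against 1771 bp for the others.

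**Figure D1:**
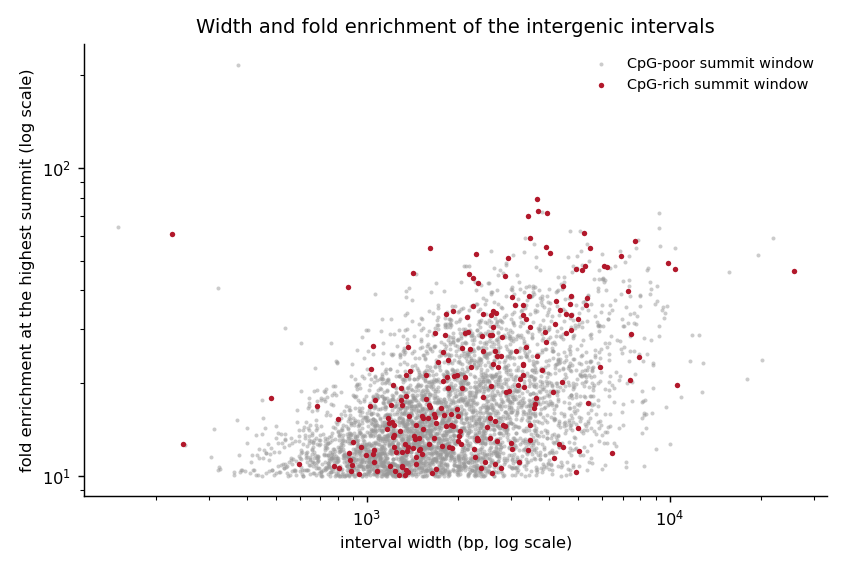
Width in bp (log scale) and fold enrichment at the highest summit (log scale) of the 4476 intergenic intervals, 1 point per interval, with CpG-rich summit windows in red and the others in grey. Median width was 1323 bp at a fold of 10 to 12 and 3542 bp at a fold of 30 and over, and single narrow intervals stand apart at the upper left, the highest at a fold of 216.7.

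The interval of highest fold, 216.7, was only 376 bp wide, had a single summit and lay 37.6 kb downstream of the start of Rpusd4, which encodes a pseudouridine synthase of mitochondrial RNA. The next by fold was 79.2, at Trappc9, a subunit of a vesicle tethering complex, followed by 72.3 at Klrb1c, a natural killer cell receptor gene, and 72.0 at Pdk4. Pdk4 encodes the kinase that switches off pyruvate dehydrogenase and so limits acetyl-CoA from glucose, and its interval, 13.6 kb upstream, was 3784 bp wide. The highest fold of any summit within 1 kb of a start of a gene, given below as its promoter, was 106.8 for Pdk4, more than for the other 9 genes named here. The remaining 6 by fold were near 1600014C10Rik (71.4), Sertad1 (71.3), Commd8 (69.6), Igf2bp3 (64.4), St3gal1 (64.0) and Srp14 (62.2). Klrb1c had no summit within 1 kb of its start sites, and Igf2bp3 had none above a fold of 4.65, while the interval near Igf2bp3 was 150 bp wide. Here and below, every chosen interval exceeds any promoter under the minimum fold by the rule itself.

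Narrow intervals were rare. Only 19 of the 4476 were narrower than 400 bp, and their median fold was 11.5. Among these, 4 had a fold of 30 or more, at Rpusd4, Igf2bp3, Hic2 (61.2, 227 bp) and Samd9l (40.8, 323 bp), and all 4 had a single summit. At a fold of 30 or more, 368 intervals had a median width of 3542 bp, so these 4 stood apart from intervals of similar fold in width. Neither AP-1 nor HNF1 was found in their windows, but 4 windows are too few to compare with the 22.1% and 1.36% of all 4476. Whether these 4 intervals share sequence with other places in the genome was not tested.

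Along the distance to the nearest coding start, strong intergenic intervals varied between 9.13 and 13.1 per Mb of the sequence open to them, with the lowest density farthest away. The sequence that met the rule on position amounted to 390.5 Mb, and it held 11.5 strong intervals per Mb. The density was 11.8 per Mb at 3 to 5 kb, 13.1 at 5 to 10 kb, 12.3 at 10 to 20 kb, 10.5 at 20 to 30 kb, 11.3 at 30 to 40 kb and 9.13 at 40 to 50 kb. The 38713 intervals in the same territory with a fold under 10 had a steeper course, with 145 per Mb at 3 to 5 kb and 82.3 per Mb at 40 to 50 kb. Strong intervals were thus 7.55% of all intervals at 3 to 5 kb and between 9.99% and 11.7% at each greater distance. Median fold varied little, from 14.2 to 15.2 over these distances.

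**Figure D2:**
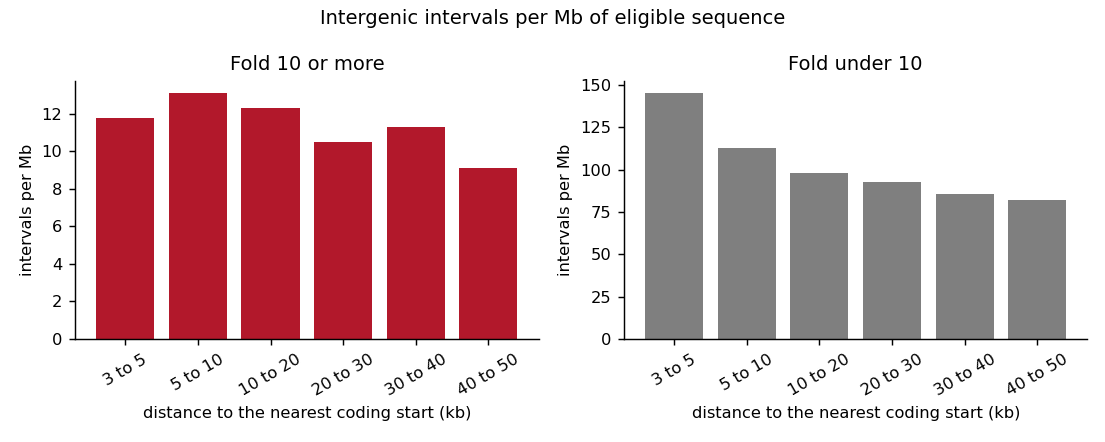
Intergenic intervals per Mb of eligible sequence by distance to the nearest coding start in kb, with intervals of fold 10 or more on the left and of fold under 10 on the right, on separate linear axes from 0. The strong intervals lie between 9.13 and 13.1 per Mb, and the weaker ones between 145 per Mb at the shortest and 82.3 per Mb at the longest distance.

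Most intervals lay upstream of the nearest start, and so did most of the sequence. Of the 4476, 3166 (70.7%, 69.4 to 72.0%) were upstream, but upstream sequence made up 70.8% of the territory, because sequence inside genes was left out by the rule. Per Mb the values were 11.4 upstream and 11.5 downstream, and the median fold was 14.8 on both sides. Chromosomes ranged from 8.24 per Mb on chromosome 19 to 14.1 per Mb on chromosome 3. The bodies of lncRNA genes held 34.2% of the summits, close to the 32.1% of weaker intergenic summits, although lncRNA starts were kept at least 1 kb away by the rule.

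By base composition the intergenic windows were unlike promoters. Median GC content was 51.5% in the 200 bp around the summit, equal to that of intervals inside coding genes, against 66.0% at promoters, 49.0% beyond 50 kb and 50% at weaker intergenic intervals. CpG dinucleotides were depleted, with a median observed over expected ratio of 0.227 against 0.815 at promoters. A ratio of at least 0.6 together with a GC content of at least 50%, here called CpG-rich, was found in 238 windows (5.32%, 4.70 to 6.01%). This share was 76.3% at promoters, 2.84% inside coding genes, 2.95% beyond 50 kb and 1.33% at weaker intergenic intervals. By distance it was 8.26% at 3 to 5 kb, 3.60% at 30 to 40 kb and 5.16% at 40 to 50 kb.

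Motifs of HNF1, HNF4 and CTCF were concentrated at the summits. HNF1 was found in 61 windows (1.36%, 1.06 to 1.75%), against 0.0335% (3 of 8952) of windows 1 kb to either side of the same summits, 0.215% of promoters and 0.261% of weaker intergenic windows. Its share inside coding genes, 1.58%, and beyond 50 kb, 2.01% (1.58 to 2.53%), had intervals that overlapped with that of the intergenic windows. HNF4 was found in 98 windows (2.19%, 1.80 to 2.66%), against 0.302% at 1 kb, 0.482% of promoters and 0.891% of weaker windows. CTCF was found in 119 windows (2.66%, 2.23 to 3.17%), against 0.0447% (4 windows) at 1 kb. Other motifs were also more frequent at the summits. CREB (TGACGTCA) was found in 0.737%, against 0.0559% (5 windows) at 1 kb and 3.00% of promoters, and GRHL (AACCGGTT) in 13 windows (0.290%), against 0.0335% (3 windows) at 1 kb.

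The CTCF motif had a higher share at strong intergenic intervals than in the other strong sets and in the weaker intergenic set as a whole. Its share was 1.23% (1.03 to 1.47%) inside coding genes, 0.944% (0.669 to 1.33%) beyond 50 kb, 0.920% at promoters and 0.896% at weaker intergenic intervals, all with intervals that did not reach the 2.23% at the lower end of the intergenic share. Weaker intergenic intervals of fold 5 to 10 had 2.88% (2.50 to 3.32%), no lower than the strong ones. The distance to the nearest gene was part of the rule, the motif was not.

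AP-1 was the most common of these motifs, in 987 windows (22.1%, 20.9 to 23.3%). This was close to the 21.8% inside coding genes and above the 13.1% of weaker intergenic windows, the 5.75% at 1 kb and the 4.19% at promoters, while beyond 50 kb the share was 24.2%. The NRF2 motif TGACTCAGC contains an AP-1 motif, so its 108 windows (2.41%) are also counted for AP-1. TEAD, the factor downstream of Hippo signalling (ACATTCC), was found in 5.54%, against 2.77% at 1 kb and 8.46% beyond 50 kb. The general promoter factors had the opposite order in the comparison with promoters only. SP/KLF (GGGCGGG) was found in 5.52% of intergenic and 46.3% of promoter windows, and ETS (CCGGAAG) in 2.03% and 15.5%. Both were more frequent at the intergenic summits than at 1 kb, with 1.47% and 0.804%, and than at weaker intergenic intervals, with 2.46% and 1.28%.

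Motifs of nuclear receptors other than HNF4 were rare, and most had shares at the summits whose intervals overlapped with those at 1 kb. DR1 was found in 26 windows (0.581%, 0.397 to 0.850%), with 0.514% at 1 kb and 0.842% (0.756 to 0.938%) at weaker intergenic intervals. The motif of the estrogen-related receptors, TCAAGGTCA, was found in 0.447% of windows and in 0.614% at 1 kb, with overlapping intervals. The motif of the GATA factors, written AGATAA, was found in 6.01% (5.35 to 6.74%) against 10.6% (9.96 to 11.2%) at 1 kb, a ratio of 0.568. This motif is low in GC content, while median GC content was higher in the 200 bp around the summit, at 51.5%, than in 400 bp, at 49.2%, and the part of base composition in this ratio was not tested. The repeat DR4, with 4 bases between its 2 copies, was an exception, with 17 windows (0.380%, 0.237 to 0.607%) against 0.134% (0.0767 to 0.234%) at 1 kb, and with the same 0.380% at weaker intergenic intervals. For DR3, DR5, DR6 and DR7 the shares were 2.00 to 2.36 times those at 1 kb, on 7 to 22 windows each and with overlapping intervals. GRE matched 12 windows (0.268%, 0.153 to 0.468%), against 0.145% (0.0849 to 0.248%) at 1 kb.

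**Figure D3:**
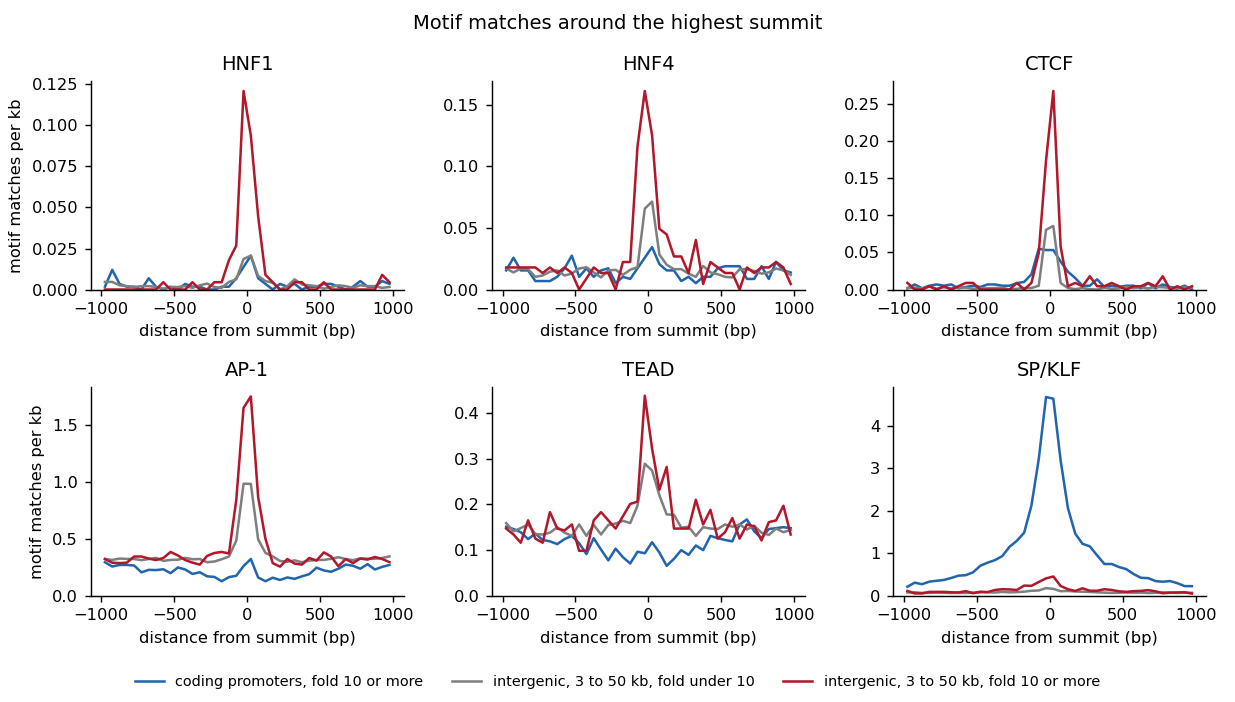
Motif matches per kb of sequence against the distance from the highest summit in bp, for 6 motifs, in 4476 strong intergenic intervals (red), 38713 weaker intergenic intervals (grey) and 11630 coding promoters (blue), with a separate linear axis for each motif. In strong intergenic intervals matches within 50 bp of the summit were 64.0 times as dense as at 800 to 1000 bp for HNF1, 78.4 times for CTCF, 8.53 times for HNF4, 5.86 times for SP/KLF, 5.52 times for AP-1 and 2.49 times for TEAD. Matches at 800 to 1000 bp were very few for HNF1 and CTCF, 0.00168 and 0.00279 per kb, so these ratios are imprecise. SP/KLF peaks highest at promoters.

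Few windows held more than 1 of the motifs of HNF1, HNF4, CTCF and AP-1, and all but AP-1 were rare by themselves. HNF1, in 1.36% of all windows, and HNF4, in 2.19%, shared 2 windows. HNF1 and AP-1 shared 9, HNF4 and AP-1 14, and CTCF and AP-1 9. AP-1 was thus found in 14.8% of 61 HNF1 windows, 14.3% of 98 HNF4 windows and 7.56% of 119 CTCF windows, against 22.1% of all. No counting error was computed for these shares within motif windows, and their difference from 22.1% was not tested. At least 1 of these 4 motifs was found in 27.5% of windows. No motif searched, other than the direct repeats, was found in 47.5%.

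**Figure D4:**
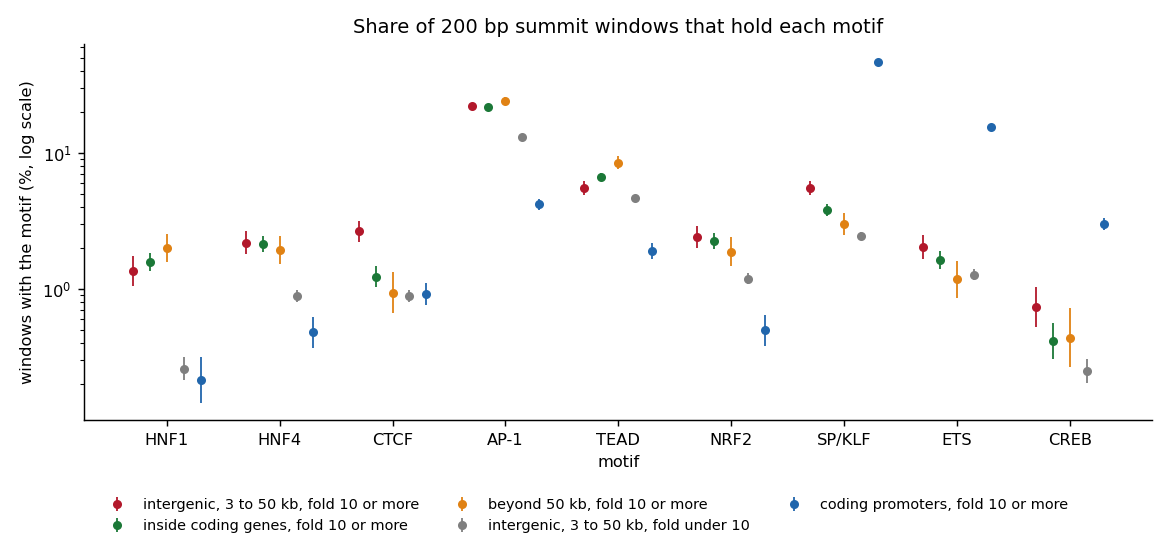
Share of 200 bp summit windows with each of 9 motifs in percent (log scale), with Wilson 95% intervals as bars, in 5 sets of intervals shown by colour. Strong intergenic windows lie near those inside coding genes for HNF1, HNF4 and AP-1, above them for CTCF (2.66% against 1.23%), and far below promoters for SP/KLF and ETS.

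Motif shares differed between CpG-rich windows and the rest, a division made by base composition. The motifs of SP/KLF, ETS and CTCF as searched contain CG, and those of HNF1, HNF4, AP-1 and TEAD do not. How much of the differences follows from this was not tested. SP/KLF was found in 27.7% of the 238 CpG-rich windows and 4.27% of the other 4238, ETS in 7.14% and 1.75%, and CTCF in 7.14% and 2.41%. AP-1 had the reverse order, with 8.82% and 22.8%, as had TEAD with 0.840% and 5.80%. Neither HNF1 nor HNF4 was found in a CpG-rich window, while 61 (1.44%) and 98 (2.31%) of the others held them. The CpG-rich intervals had a median fold of 17.9 against 14.7, and they lay closer to a coding start, at a median of 13760 bp against 17940 bp.

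Across the whole range of fold enrichment in this territory, from under 2 to 30 and over, each motif followed its own course. HNF1 was found in 0.0767% (0.0389 to 0.151%) of 10429 windows at a fold under 2, 0.654% at 5 to 10, 0.646% at 10 to 15, 1.96% (1.41 to 2.71%) at 15 to 30 and 2.99% (1.68 to 5.27%) of 368 windows at 30 and over. For HNF4 the share was 0.422% under 2, 2.24% (1.71 to 2.93%) at 10 to 15, and 2.13% and 2.17% above that. For AP-1 it was 7.69% under 2, 18.4% at 3 to 5, 24.7% (22.8 to 26.8%) at 15 to 30 and 21.2% (17.3 to 25.7%) at 30 and over. CTCF was highest in the middle. It was found in 0.0479% of windows at a fold under 2, 2.88% at 5 to 10, 3.36% (2.70 to 4.17%) at 10 to 15, 2.07% at 15 to 30 and 1.09% (0.423 to 2.76%) at 30 and over. Between the lowest and the highest of these classes the share was 8.25% and 3.53% for GATA, and 0.710% and 15.5% for CpG-rich windows. Fold chose the strong intervals but no motif did, and interval width differed along the same range.

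The strongest intervals with an HNF1 motif, named here after their values were seen, lay near genes of several kinds. They included an interval of fold 46.0 that lay 32.5 kb upstream of Cd2ap, which anchors the podocyte slit diaphragm, one of 44.9 that lay 34.0 kb upstream of Shh, the hedgehog ligand, one of 40.7 near Zfp36l1, an RNA decay factor, and one of 38.4 near Slc16a1, the lactate and pyruvate transporter MCT1. Shh had no summit above a fold of 2.75 within 1 kb of its start, and no other coding gene started within 50 kb of that interval. For HNF4 the strongest were 48.1 near Klf3, 43.7 near Tex44, 40.1 near Trim8 and 39.9 near Klhl36. For CTCF they were 46.2 near Sema3b, 42.8 near Psmd1 and 38.95 near Uvrag, and for AP-1 they included 62.2 near Bcl3, a partner of NF-kB, and 53.4 near Glrx.

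The nearest coding gene was used as a name for each interval, not as its target. A total of 3172 of 20445 autosomal coding genes, 15.5%, were nearest to at least 1 strong intergenic interval. Only 1 coding gene started within 50 kb of 50.7% of the intervals, and 4 or more did for 11.2%, with up to 15. For 23.5% of the intervals the nearest gene had no summit of fold 10 or more within 1 kb of its start, for 10.1% another coding gene within 50 kb had one, and for 13.4% no coding gene within 50 kb did. One interval with HNF1, of fold 21.0, was nearest to Ctcfl, whose promoter reached 2.03, but lay 23.7 kb from Pck1, the gluconeogenic enzyme of the proximal tubule, whose promoter had 29.8.

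Strong promoters were frequent among genes next to strong intergenic intervals. A promoter interval of fold 10 or more, with its highest summit within 1 kb of a start, was present at 58.2% of all 20445 genes and at 71.6% (70.0 to 73.1%) of the 3172 nearest genes. Among genes that had eligible sequence but no strong intergenic interval it was 50.4%. The share was 70.0% with 1 interval, 73.5% with 2, 78.0% with 3 and 83.7% (74.8 to 89.9%) of 92 genes with 4 or more. The genes with more intervals also had more eligible sequence, a median of 27.7 kb with 1 and 52.1 kb with 4 or more. Median promoter fold over the genes with a promoter interval did not follow the same order, with 33.0, 36.7, 40.5 and 36.7. Genes without one, left out of these medians, were 321 of 2271 with 1, 73 of 627 with 2, 20 of 182 with 3 and 5 of 92 with 4 or more.

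Hes1 and Spp1 were each nearest to 7 strong intervals, more than any other gene. Hes1 encodes a repressor that acts downstream of Notch, and its intervals had folds of 16.0, 37.9, 19.0, 11.3, 23.5, 16.6 and 14.1 at 9.91, 17.5, 29.1, 37.4, 38.4, 49.3 and 50 kb from the start. Spp1 encodes osteopontin, a secreted protein of injured tubules, and its intervals had folds of 11.4, 15.9, 26.1, 35.6, 20.5, 28.3 and 10.5 at 5.70, 10.2, 10.2, 16.4, 26.6, 34.6 and 37.8 kb. The strongest Spp1 interval thus slightly exceeded the 32.2 of its own promoter, whereas at Hes1 the promoter, at 48.4, was stronger than every interval. At each gene 5 of the 7 were upstream.

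Another 5 genes had 6 intervals each. Ctsl, the lysosomal protease cathepsin L, had folds from 11.8 to 36.8 and a promoter of 63.6, and S100a10, the partner of annexin A2, from 14.5 to 29.1 and a promoter of 39.02. Slc16a1 had folds from 10.7 to 38.4, and its strongest interval, with an HNF1 motif, exceeded its promoter at 21.9. Eps8l3, a gene of the actin regulator family of Eps8, had folds from 11 to 22.4 and a promoter of 6.35. This promoter value lay below the minimum fold of the rule, which every chosen interval had to reach. Tcim had folds from 11.2 to 33.9 and a promoter of 20.95. In all, 28 genes had 5 or more, and Arnt2, Asb13 and Cstad came first by name among those with 5.

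Most intervals stood alone. Neighbouring summits were joined into stretches up to a set gap, with 12.48 kb the widest gap joined and 12.55 kb the narrowest one not joined. By this measure 2918 intervals (65.2%) had no neighbour, 1040 formed 520 pairs and 518 (11.6%) lay in 156 stretches of 3 or more. The stretch with the most intervals lay upstream of Eps8l3, with 6 in 25.5 kb on chromosome 3. Of the stretches of 5, those at Hes1 spanned 40.1 kb, at Ctsl 20.8 kb, between Fabp6 and Pwwp2a 30.0 kb and at Spp1 27.6 kb. Median fold was 16.0 in stretches of 3 or more and 14.5 for lone intervals, AP-1 was found in 23.4% and 21.4%, and CTCF in 1.93% and 2.95%.

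Genes were also compared by lists of markers and pathways. The lists were written with earlier results of these data known, so they are no independent check on cell types. Against the 15.5% of all coding genes, 18 of 40 proximal tubule markers (45.0%), 6 of 22 markers of the thick limb and distal tubule (27.3%) and 6 of 20 of the collecting duct (30%) were nearest to a strong intergenic interval. The counts were 3 of 12 for podocytes, 3 of 19 for immune cells (15.8%), 2 of 16 for endothelium, 2 of 16 for stroma and 2 of 19 for genes of other organs (10.5%). Per Mb of eligible sequence the proximal tubule list had 27.5 intervals and the thick limb and distal list 23.9, against 11.5 over the whole territory, while the collecting duct list had 10.2, podocytes 9.98, endothelium 4.33, immune cells 12.8, stroma 5.59 and other organs 8.16. Per Mb the lists of the proximal and distal tubule were thus above those of the other cell types, and the collecting duct list was not.

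**Figure D5:**
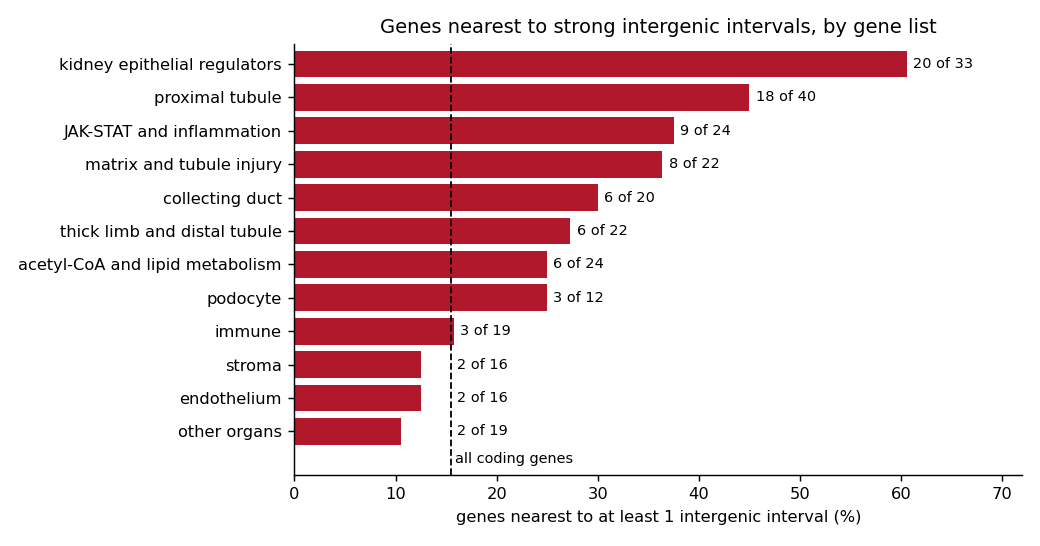
Percent of the autosomal genes of each of 12 lists that are nearest to at least 1 strong intergenic interval, with the counts beside the bars and the 15.5% of all coding genes as a dashed line. Kidney epithelial regulators reach 60.6% and proximal tubule markers 45.0%, and stroma, endothelium and genes of other organs lie under the dashed line.

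Genes of the proximal tubule serve to reabsorb filtrate and to make glucose. Slc27a2, a fatty acid transporter, had intervals of fold 42.2 at 11.8 kb and 10.6 at 6.88 kb, and Slc13a1, a sulfate transporter, had 34.1 at 4.82 kb. Slc2a2, which encodes the glucose exporter GLUT2, had 26.5 at 37.0 kb and 26.3 at 39.3 kb downstream of its start, both above the 10.8 at its promoter. Among further genes, the gluconeogenic enzymes Pck1 and Fbp1 had strongest intervals of 20.03 and 20.6, and Cubn, a receptor for filtered protein, had 10.8. Slc34a1, Slc5a2, Slc22a6 and Slc22a8 had none, in 5.14, 5.30, 15.3 and 47.0 kb of eligible sequence. None of the 26 windows of this list held an HNF1 or HNF4 motif, and 5 held AP-1. Over all 4476 windows the shares were 1.36%, 2.19% and 22.1%, so 26 windows are too few to set the list apart.

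In the thick limb and distal tubule, claudins set the passage of ions between cells. Cldn14 had an interval of 48.3 at 17.1 kb and one of 11.9, Cldn16 one of 17.9, and Cldn10 4 intervals of 30.5, 23.2, 10.1 and 10.0 between 4.19 and 31.2 kb upstream. The promoter of Cldn14 reached 4.13, but Chaf1b, with a promoter of 41.0, started 28.2 kb from the interval of 48.3. No strong interval was nearest to Slc12a1, Umod or Slc12a3, the defining genes of these segments, but these had only 1.66, 4.3 and 9.66 kb of eligible sequence. In the collecting duct, Tfcp2l1, a transcription factor of this segment, had 25.5 at 14.1 kb, Aqp4 14.8, Slc4a1 14.0, Atp6v0d2 11.7, Foxi1 10.9 and Rhcg 10.9. Aqp2, Aqp3 and the 3 sodium channel genes Scnn1a, Scnn1b and Scnn1g had none, with 0.39 kb of eligible sequence at Scnn1a and 22.2 to 45.0 kb at the others.

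Outside the tubule the lists held 2 to 4 intervals each, with median folds from 10.8 for endothelium to 17.5 for stroma, against 15.9 for the proximal tubule, 17.5 for the thick limb and distal tubule and 12.8 for the collecting duct. Podocyte intervals included 18.7 and 10.0 at Wt1 and 15.2 at Synpo. Endothelial ones were 11.3 at Emcn and 10.2 at Flt1, while Kdr and Cdh5 had none in 43.7 and 38.7 kb of eligible sequence and Pecam1 had no such sequence. Of the immune genes, Adgre1 had 23.6, Ptprc 16.3 and Csf1r 10.6, and the promoters of Adgre1 and Ptprc reached 2.49 and 1.90. Both promoter values lay below the minimum fold of the rule, so any chosen interval had to exceed them. The Ptprc interval was 1 of the 2 with both an HNF1 and an HNF4 motif, and no other coding gene started within 50 kb of it. Col1a1, listed for stroma and for matrix, had 23.0 at 7.25 kb and 11.3 at 19.5 kb. Among genes of other organs Ttr, the transthyretin gene of liver and choroid plexus, had 36.7, 16.1 and 11.3 between 3.38 and 21.1 kb upstream, and Neurod1 13.9.

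Transcription factors and coactivators of kidney epithelium had the highest share of the 12 lists, with 20 of 33 (60.6%) against the 15.5% of all genes. They also had the most eligible sequence, 1.41 Mb, and with 22.7 intervals per Mb they ranked below 5 of the other lists, which had 23.9 to 30.4. The circadian repressors Bhlhe40 and Bhlhe41 had 38.4 at 8.81 kb and 33.4 at 9.70 kb. Pax8, which specifies the nephric lineage, had 31.1, 18.7 and 10.5 at 4.39, 12 and 45.2 kb upstream, and Pax2 14.5. Ppargc1a, the coactivator that drives mitochondrial genes, had a strongest interval of 29.3, Klf15 of 29.5, Nfib of 30.3 and Elf3 of 25.5. The nuclear receptor genes Rxra, Esrrg, Nr3c1 and Ppara had 18.4, 17.7, 16.2 and 19.3. Hnf4a and Hnf4g had none, with 3 and 5 weaker intervals in 4.47 and 71.3 kb of eligible sequence.

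Genes of acetyl-CoA and lipid metabolism mostly had strong promoters. Of 24 such genes 23 had a promoter interval of fold 10 or more (95.8%, against 58.2% of all genes), and 6 (25%, against 15.5%) were nearest to a strong intergenic interval. Acly itself had no eligible sequence, so that no interval could be nearest to it. Neither had Fasn, Acaca and Acss2. Plin2, which coats lipid droplets, had 19.97, 17.4 and 13.8 at 4.11, 20.2 and 29.5 kb upstream. Acacb, which makes malonyl-CoA, had 19.2, and Slc25a1, the citrate carrier of mitochondria, had 17.6 and 12.4. Their intervals per Mb, 30.4, were the most of the 12 lists and rested on 9 intervals in 0.296 Mb.

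Of 24 genes of JAK-STAT signalling and inflammation, 9 (37.5%, against 15.5% of all coding genes) were nearest to a strong intergenic interval, with 16 intervals in all. The feedback inhibitors had 29.4 and 14.6 at Socs3, 25.1 at Socs1 and 12.8 at Socs2. Jak2 had 1 interval of 13.2 at 35.0 kb upstream with an AP-1 motif, and Il6st 1 of 14.9. Jak1 had none in 39.4 kb of eligible sequence, while Tyk2 and Jak3 had no such sequence. None of the 7 Stat genes had one, with eligible sequence of 32.5 kb at Stat4, none at Stat2 and 1.29 to 12.6 kb at the others. Cxcl1, a neutrophil chemokine, had 4 upstream, of 22.3, 21.9, 18.2 and 17.4 between 6.19 and 18.6 kb. Nfkb1 had 4 from 11.3 to 22.2, Rela 1 of 22.7 and Ccl2 1 of 10.0. Il6, Vcam1, Il6ra, Icam1 and Tnf had none, in 65.25, 74.01, 12.28, 3.14 and 0.69 kb of eligible sequence.

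Matrix and tubule injury genes had 8 of 22 (36.4%, against 15.5% of all coding genes) with 20 intervals, 7 of them at Spp1. Col4a1 had 39.6 and 22.1 at 37.4 and 28.0 kb downstream of the nearest of its annotated starts, in sequence beyond the end of the gene. This start need not be that of its main promoter. Krt20, a keratin of injured tubules, had 18, 16.7 and 12.8, and its promoter reached 5.43. This promoter value lay below the minimum fold of the rule, so any chosen interval had to exceed it. Among targets of YAP and TEAD, Ccn2 had 17.6 and 15.5, and Ccn1 12.4. Sox9, a regulator of tubule repair, had 13.9, and Clu had 12.7 and 11.4. Havcr1 and Lcn2, markers of injury, and Fn1, Col5a1, Col3a1, Has2 and Has3 had none. Eligible sequence was only 0.70 kb at Lcn2 and 12.4 to 65.3 kb at the other 6. All these values are of the pooled kidneys.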

How the data were processed

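ATAC-seq libraries of mouse kidney were grouped by genotype from their labels, 3 WT and 3 Acly cKO. The study's methods state that reads were trimmed with fastp, aligned to mm39 with Bowtie2, freed of duplicates and of reads that did not map uniquely, and that peaks were called with MACS3 and filtered with BEDTools. The submitters' processing notes give Bowtie2 2.3.4.3, MACS3 3.0.0 and bedtools 2.29.1. By its peak names the deposited list is 1 pooled call, and no library is named in it. It holds the fold enrichment at each summit, a linear ratio computed by the authors' caller, the −log10 q of each summit, also the authors' own, and a score that the authors' caller derived from the q. The deposited list of unfiltered summits repeats the −log10 q and was not used further. Duplicate removal and the pooled background affect how high a summit can rise, and a pooled call cannot show an interval present in some kidneys only.

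The 749750 summits were grouped into intervals by chromosome, start and end, each represented by the summit of highest q rank. They were placed on GENCODE M39 of GRCm39, with the 5′ ends of coding transcripts as start sites. A gene can thus have several start sites, and distances are to the nearest of them. Ties in distance went to the start at the lower coordinate, and where genes shared a start, to the first in alphabetical order. Eligible sequence was counted on a grid of 10 bp without unknown bases. Motifs were written from general knowledge, with 1 mismatch allowed from 11 fixed bases on, and summit windows were compared with windows 1000 bp to either side. Shares carry Wilson 95% intervals, which cover counting error only. No test was run, since sequences and intervals of 1 pooled call are not replicates. The members and the 12 gene lists were chosen with earlier results of these data known. Genes were named as the 10 highest by fold, the 10 with the most intervals, the leading intervals of each list, the longest stretches and the intervals at each limit, and others where the text says so. Some genes that these rules name are not reported here, although counts include them. Placing, motif search and stretches were tested on simulated data, and all 3100 planted motif copies were found. Python 3.11.15, numpy 2.4.6, pandas 2.3.3, scipy 1.17.1 and matplotlib 3.10.9 were used.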

Additional observations from a re-analysis of the deposited data

How the results depend on the processing

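No paired analysis was possible because 1 pooled call gave every value and no library has its own. Replicates could not be left out either.

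From 4476, the number of strong intergenic intervals moved to 10896 at a minimum fold of 5 and 1129 at 20. It stayed within 1.5 times with 1 start site per gene, at 5 to 50 kb, at 3 to 100 kb, without the lncRNA rule, with the whole interval outside genes, and with summits ranked by fold. Median GC content, 51.5%, was 53.0% in 100 bp, 49.2% in 400 bp, 53.5% at a minimum fold of 20 and 51.0% without CpG-rich windows, an alternative chosen after seeing the data. In 100 bp the motif shares were 1.05% for HNF1, 1.39% for HNF4, 0.335% for DR1, 2.06% for CTCF and 15.1% for AP-1, and in 400 bp they were 2.75% for HNF4, 1.12% for DR1 and 27.8% for AP-1, which follows from the length searched. At a minimum fold of 20 HNF1 was 2.13%, CTCF 1.68% and AP-1 23.7%. With no mismatch HNF1 fell to 0.0894%, DR1 to 0.0223% and CTCF to 0.156%. These 5 shares stayed within their counting error without CpG-rich windows and with whole intervals outside genes, both chosen after seeing the data.

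The upstream share was 76.2% with 1 start site per gene. The share of nearest genes with a strong promoter was 68.6% within 500 bp and 76.3% within 3 kb, and 74.8% over every summit within 1 kb, an alternative chosen after seeing the data, against 55.6%, 61.9% and 61.0% of all genes. Counting every gene with a start within 50 kb gave 5870 genes in place of 3172. Stretches numbered 28 with gaps of at most 5 kb and 279 with 25 kb, in place of 156. Without library depths, the reproducibility of an interval between kidneys is undetermined.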
